A study of Rattus norvegicus with 34 samples.

Results

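The comparison concerned 6 of the 34 arrays of the series: 3 of NRK-52E cells kept for 6 h, and 3 kept for 24 h, in medium with 0.1% DMSO. The members were chosen by their labels alone, all arrays of DMSO-treated cells at these times, and no measured value entered the choice. NRK-52E is an epithelial line derived from rat kidney, given in the labels as proximal tubule cells of Osborne-Mendel origin. The cells were grown in DMEM with 10% fetal calf serum to confluence in 6-well plates before DMSO was added, and RNA was taken at the end of each period. Both groups carried the same solvent, so the comparison follows a confluent culture over time with no compound. No cells without DMSO, and no cells sampled before it was added, were analysed here, so time in DMSO, time at confluence and age of the medium cannot be told apart. The rest of the series held DMSO cells at 72 h, cells labelled as given monuron, a phenylurea herbicide, at the same 3 times, and rat kidney and liver. The labels call the 3 arrays of a group biological replicates and the protocol speaks of separate studies.

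An epithelial cell that stops dividing withdraws from the cycle in G1. Transcription of replication genes depends on E2F factors and that of mitotic genes on the MuvB complex with B-MYB and FOXM1. When the cycle stops, E2F4 or E2F7 and E2F8 and the repressor form of MuvB, known as DREAM, occupy the same promoters. Growth of a cell needs nucleotide synthesis, ribosome assembly, amino acid activation and protein folding, which are driven in part by MYC. Membrane lipids are supplied by genes under the SREBP factors, and lysosomal genes are under TFEB and TFE3. Kidney epithelial lines at high density also lay down basement membrane and build cell junctions.

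All values are log2 expression levels, so a difference of 1 is a change of 2-fold, and every difference is the 24 h mean minus the 6 h mean. A gene was called when its adjusted p (limma, Benjamini-Hochberg over all genes tested) was below 0.05. Of 8880 genes tested, 2598 were called higher at 24 h (29.3% of those tested) and 2910 lower (32.8%), 62.0% in all. At least 2-fold change was found for 578 genes upward (6.51%) and for 450 downward (5.07%). The 3 values at 6 h and the 3 values at 24 h did not overlap for 6060 genes (68.2%). Such breadth makes a called gene ordinary here. The counts of every gene list below are to be read against these shares, also where they are not repeated. The median difference over all genes tested was -0.03. Centring each array on its median moved it to -0.16 and the calls to 1939 higher and 3597 lower, so that higher calls made up 35.0% of all calls instead of 47.2%. Within a time the arrays agreed closely, with 8 to 88 genes lying more than 1 from the mean of the other 2 arrays, the highest number on DMSO 6 h replicate 1.

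**Figure D1:**
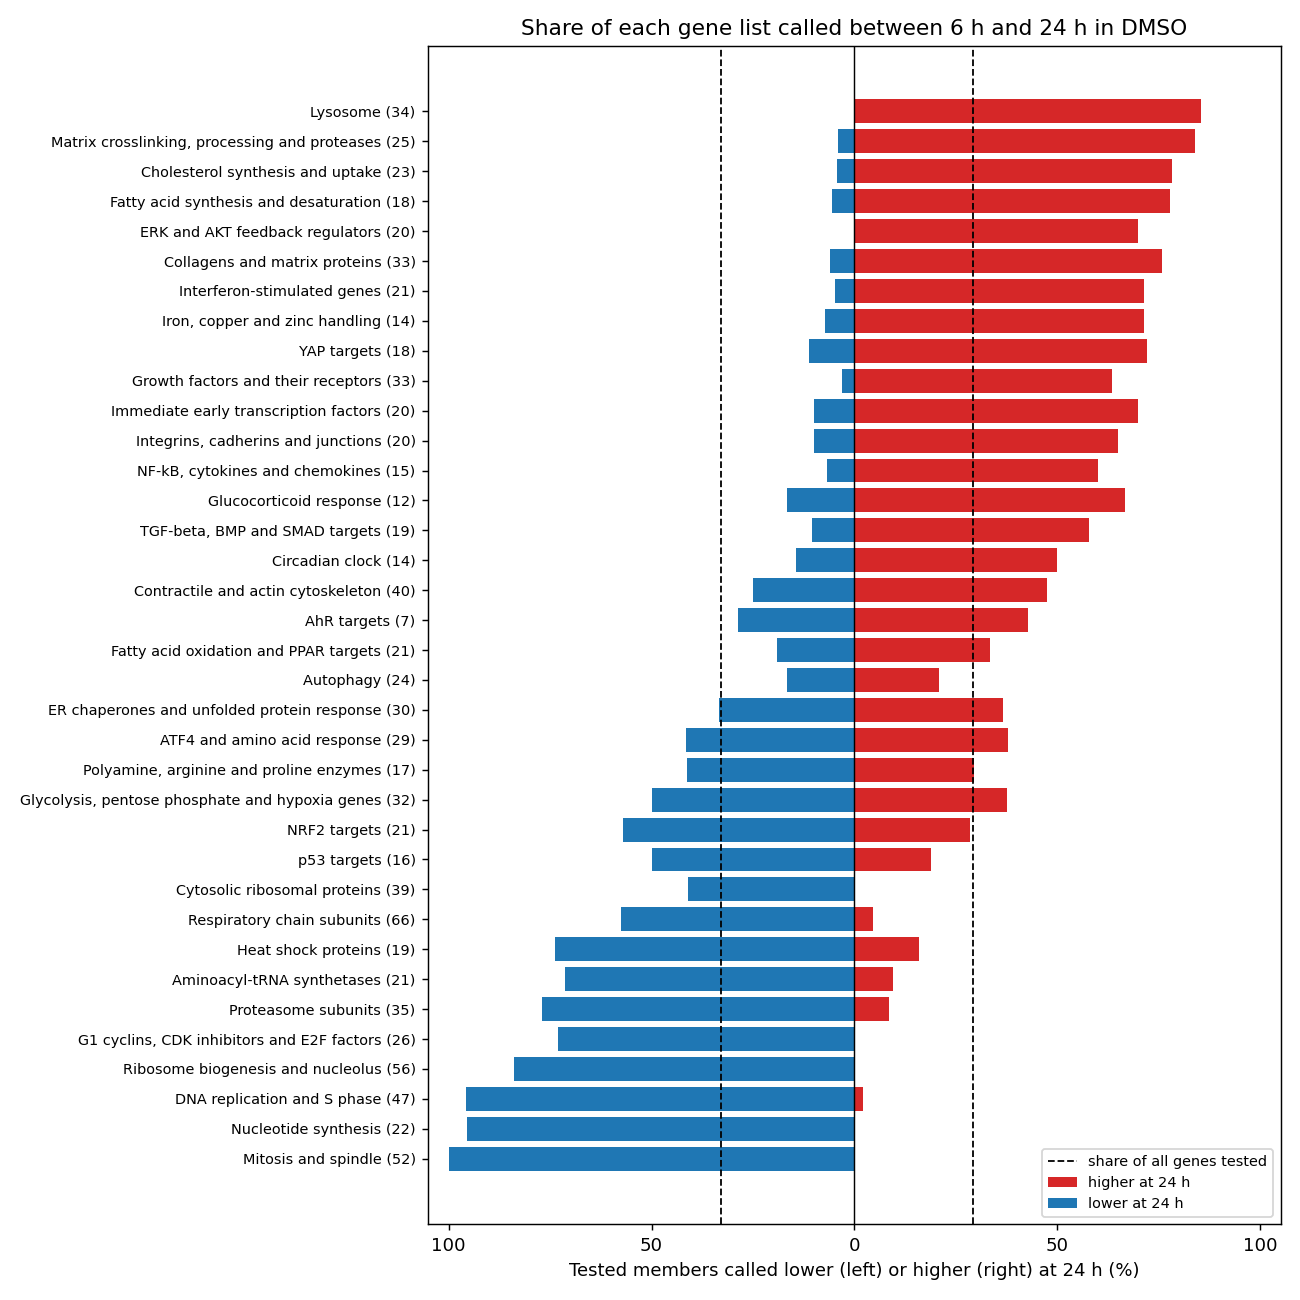
Percent of the tested members of 36 gene lists (number tested in brackets) called lower (bars to the left) or higher (bars to the right) at 24 h than at 6 h in DMSO, 3 arrays each. The dashed lines mark the shares over all genes tested, 32.8% lower and 29.3% higher; all 52 tested mitotic genes and 45 of 47 replication genes lie on the left, and 29 of 34 lysosomal genes on the right.

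The label of the cells was checked against markers first. Of 43 proximal tubule genes on the array, 5 lay above the array median on at least 3 arrays: Dab2, Slc7a9, Slc4a4, Ggt1 and Mme. The defining ones were below it on all 6 arrays, among them the endocytic receptors Lrp2 and Cubn, the transporters Slc34a1, Slc5a2 and Slc22a6, the water channel Aqp1, the peptidase Anpep and the transcription factors Hnf4a, Pax2 and Pax8. Markers of other cells were mixed. Below the median on all 6 arrays were Pecam1 and Vwf of endothelium, Ptprc, Csf1r and Tyrobp of leukocytes, Pdgfra and Thy1 of fibroblasts, Slc12a1, Slc12a3, Aqp2 and Calb1 of the distal nephron and Nphs1 of podocytes. Above it on all 6 arrays were Tek and Egfl7 of endothelium, with 6 h means of 6.04 and 6.11, Gata3 of the distal nephron, at 9.20, Cd14 of leukocytes, at 11.39, and Wt1, Synpo, Plce1 and Cd2ap, 4 of 9 podocyte markers. In all, 2 of 17 endothelial, 1 of 20 distal nephron and 2 of 23 leukocyte markers passed the filter. Of 20 fibroblast markers, 9 passed the filter, each above the median on all 6 arrays. They were Mfap5, Col3a1, Acta2, Postn, S100a4, Col1a1, Mfap4, Col1a2 and Twist1, with 6 h means from 14.02 for Mfap5 to 5.80 for Twist1. The log2 of the summed linear level of the 20 fibroblast markers ran from 14.93 to 15.04 at 6 h and from 15.23 to 15.31 at 24 h. That sum rests on the brightest members. Mfap5 had means of 14.02 at 6 h and 14.23 at 24 h, and Col3a1 of 12.24 and 13.65. Of the 9 tested markers, 4 were called higher (44.4%) and 3 lower (33.3%), with a median difference of 0.04. Among the few tubule genes measured, Ggt1, which encodes the brush border enzyme gamma-glutamyltransferase, was at 7.64, 7.56 and 7.67 at 6 h and 5.32, 5.52 and 5.18 at 24 h, and fell by 2.29 (SE 0.14, adjusted p = 9.21e-07). Dab2, an adaptor of the endocytic receptors, was at 10.32, 10.67 and 10.67 at 6 h and 12.34, 12.33 and 12.32 at 24 h, and rose by 1.77 (SE 0.10, adjusted p = 4.98e-07). The peptidase gene Mme rose by 0.78. In bulk RNA, a lower level of a transcript in every cell and fewer cells holding it cannot be told apart.

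Genes of DNA replication were lower at 24 h almost throughout. Of 47 tested members, 45 fell, 1 rose and 1 did not pass the test, against 32.8% of all genes called lower, and the median difference was -1.17. Mcm5, a subunit of the MCM helicase that opens the origins, was at 10.29, 10.20 and 10.21 at 6 h and 8.62, 8.59 and 8.45 at 24 h, and fell by 1.68 (SE 0.09, adjusted p = 4.91e-07). The 6 h arrays lay close together and well above all 24 h arrays. The helicase subunit Mcm2 was at 11.55, 11.39 and 11.30 at 6 h and 10.37, 10.40 and 10.23 at 24 h and fell by 1.08. Pcna, the sliding clamp of the polymerases, was at 13.86, 13.75 and 13.78 at 6 h and 12.88, 12.90 and 12.85 at 24 h and fell by 0.92 (SE 0.05, adjusted p = 5.91e-07). Pcna stood among the brightest genes of the list at both times and its groups did not overlap.

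Gins1, a subunit of the GINS complex that activates the helicase, was at 9.98, 9.63 and 9.47 at 6 h and 7.56, 7.80 and 7.60 at 24 h, and fell by 2.04 (SE 0.14, adjusted p = 1.37e-06), 4.12-fold lower at 24 h and the largest fall of the list. The clamp loader gene Rfc5 fell by 1.32, and Gmnn, the inhibitor of origin licensing, fell by 1.58. Cyclin E1, which drives entry into S phase, is encoded by Ccne1, with values of 10.71, 10.51 and 10.57 at 6 h and 9.51, 9.38 and 9.28 at 24 h and a fall of 1.21. Clspn, which encodes the checkpoint mediator claspin and is no list member, was at 8.02, 8.34 and 7.89 at 6 h and 5.24, 5.47 and 5.22 at 24 h and fell by 2.77. The exception that rose was the licensing factor gene Cdt1, at 10.61, 10.56 and 10.67 at 6 h and 10.92, 10.90 and 10.83 at 24 h, a rise of 0.27 (adjusted p = 0.0067). With arrays centred on their medians Cdt1 differed by 0.14 (adjusted p = 0.1512), which is not past the threshold.

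Mitotic genes gave the most uniform list. All 52 tested members fell, with differences from -1.68 to -0.40 and a median of -1.03, and the groups overlapped for none of them. Aurka, the kinase of the spindle poles, was at 10.60, 10.51 and 10.63 at 6 h and 9.07, 9.01 and 8.89 at 24 h, and fell by 1.59 (SE 0.08, adjusted p = 4.98e-07). Aurkb, the kinase of the chromosomal passenger complex, fell by 1.35, and the passenger subunit Birc5 was at 10.65, 10.34 and 10.46 at 6 h and 8.91, 8.90 and 8.92 at 24 h and fell by 1.57. All 3 arrays at 24 h gave Birc5 nearly the same level. The cyclin genes Ccna2 and Ccnb1 fell by 1.17 and 1.31. Plk1, the polo-like kinase of mitotic entry, was at 10.07, 9.96 and 10.03 at 6 h and 8.69, 8.63 and 8.54 at 24 h and fell by 1.41 (SE 0.09, adjusted p = 1.00e-06). The spindle checkpoint gene Mad2l1 fell by 1.60 and Pttg1, which encodes securin, by 1.11. Cdc20, the activator of the anaphase-promoting complex, was at 11.09, 11.01 and 10.95 at 6 h and 10.12, 10.06 and 10.03 at 24 h and fell by 0.94, while a dim further probe set of the gene differed by 0.14. Smaller falls were seen for the proliferation marker Mki67, by 0.71, and for Top2a, topoisomerase II alpha, by 0.51.

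**Figure D2:**
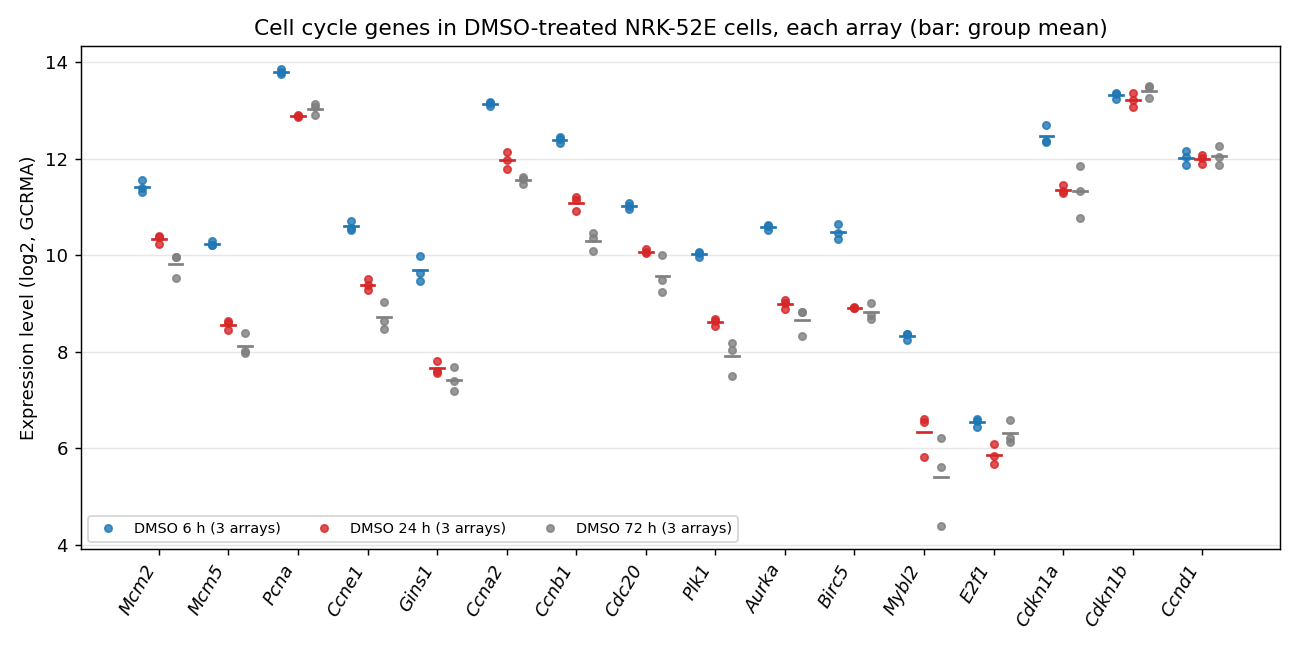
Expression level (log2) of 16 cell cycle genes on each of the 3 arrays at 6 h (blue), 24 h (red) and 72 h (grey) in DMSO, with bars at the group means. Replication and mitotic genes are lower at 24 h on every array, for Mcm5 from a 6 h mean of 10.23 to a 24 h mean of 8.55, while the points of Cdkn1b and Ccnd1 overlap.

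The promoters of both lists were read in 250 bases before the RefSeq start of each gene (GRCr8). The E2F motif was searched as TTTCCCGC or TTTGGCGC, on both strands, and the cell cycle genes homology region (CHR), to which MuvB binds, as TTTGAA on both strands. An E2F match lay in 8 of 42 replication promoters found in the table (19.0%), in 0 of 46 mitotic ones, and in 1.3% of all 27457 promoters. A CHR match lay in 23 of 46 mitotic promoters (50.0%), in 3 of 42 replication promoters (7.1%) and in 16% of all. Among genes tested the shares were 2.7% for E2F and 9.9% for CHR. CCAAT, the box bound by NF-Y, lay in 73.9% of mitotic, 50.0% of replication and 34.3% of all promoters. A match is a run of letters and not a measured binding site, and genes of each list were known for these motifs beforehand. The 3 replication genes with an E2F match that fell most are printed with the match in capitals, 5′ to 3′ on the gene's strand, ending at the base before the start.
Gins1 (chr3:160184670-160184919, plus strand): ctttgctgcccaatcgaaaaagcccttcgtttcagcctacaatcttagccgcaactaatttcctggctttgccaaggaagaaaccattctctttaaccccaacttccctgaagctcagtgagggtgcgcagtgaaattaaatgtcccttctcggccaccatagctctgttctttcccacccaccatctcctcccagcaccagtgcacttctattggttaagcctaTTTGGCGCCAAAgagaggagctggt
Mcm5 (chr19:13488563-13488812, plus strand): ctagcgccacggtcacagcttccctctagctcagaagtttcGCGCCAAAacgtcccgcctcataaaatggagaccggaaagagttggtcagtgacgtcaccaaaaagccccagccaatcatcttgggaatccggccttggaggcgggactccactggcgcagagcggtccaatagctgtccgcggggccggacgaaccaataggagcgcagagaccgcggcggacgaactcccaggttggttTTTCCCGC
Mcm7 (chr12:22163179-22163428, minus strand): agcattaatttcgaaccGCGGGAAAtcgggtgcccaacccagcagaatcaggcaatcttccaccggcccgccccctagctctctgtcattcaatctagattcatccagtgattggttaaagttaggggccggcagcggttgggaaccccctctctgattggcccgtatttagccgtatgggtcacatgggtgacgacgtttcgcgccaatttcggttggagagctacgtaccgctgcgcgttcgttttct
In Gins1 the matches on the 2 strands overlap, from 25 bases before the start. In Mcm5 a match begins 209 and another 8 bases before it, and the single match of Mcm7, a helicase subunit that fell by 1.28, begins 233 before it. For the 3 mitotic genes with a CHR match that fell most, the capitals mark TTTGAA.
Cdca8 (chr5:142483200-142483449, minus strand): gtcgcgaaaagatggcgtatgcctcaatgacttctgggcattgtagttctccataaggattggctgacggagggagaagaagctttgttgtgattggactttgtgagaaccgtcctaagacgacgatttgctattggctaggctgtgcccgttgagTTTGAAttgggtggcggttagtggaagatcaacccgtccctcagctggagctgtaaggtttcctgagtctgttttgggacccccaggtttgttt
Birc5 (chr10:103571896-103572145, plus strand): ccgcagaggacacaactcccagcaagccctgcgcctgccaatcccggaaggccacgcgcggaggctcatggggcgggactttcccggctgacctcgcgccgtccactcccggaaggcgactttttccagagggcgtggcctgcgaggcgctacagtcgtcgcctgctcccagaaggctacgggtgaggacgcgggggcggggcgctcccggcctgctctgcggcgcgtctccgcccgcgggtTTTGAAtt
Spc25 (chr3:74396719-74396968, minus strand): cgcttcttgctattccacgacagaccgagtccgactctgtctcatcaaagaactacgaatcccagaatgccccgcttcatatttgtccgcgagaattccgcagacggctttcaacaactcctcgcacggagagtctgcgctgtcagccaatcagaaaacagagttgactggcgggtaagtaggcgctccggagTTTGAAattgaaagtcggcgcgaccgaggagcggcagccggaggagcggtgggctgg
The CHR match begins 94 bases before the start in Cdca8, 8 in Birc5 and 57 in Spc25. Cdca8, the passenger subunit borealin, fell by 1.68, and Spc25, of the NDC80 complex at the kinetochore, by 1.47.

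Among G1 cyclins, CDK inhibitors and E2F factors, 19 of 26 tested members fell, 0 rose and 7 did not pass the test. Mybl2, the B-MYB subunit of the activating MuvB complex, was at 8.37, 8.25 and 8.36 at 6 h and 6.61, 6.55 and 5.82 at 24 h, and fell by 2.00 (SE 0.19, adjusted p = 1.24e-05). The factor Lin54, which contacts the CHR, fell by 0.84, and E2f1, an activating E2F, was at 6.61, 6.43 and 6.56 at 6 h and 5.83, 5.68 and 6.09 at 24 h and fell by 0.67. No CDK inhibitor of the list was called higher at 24 h on the probe set used. Cdkn1a, which encodes p21, was at 12.69, 12.34 and 12.36 at 6 h and 11.32, 11.28 and 11.46 at 24 h, and fell by 1.11 (SE 0.10, adjusted p = 6.56e-06), 2.15-fold lower. Cdkn2d, the INK4 inhibitor p19, fell by 1.06, and Cdkn1b, which encodes p27, differed by -0.10 (SE 0.07, adjusted p = 0.2396), by -0.23 (adjusted p = 0.0206) with arrays centred on their medians, with a second probe set at 0.41. Ccnd1, cyclin D1, was at 11.86, 12.03 and 12.15 at 6 h and 12.00, 11.89 and 12.08 at 24 h, with overlapping groups and a difference of -0.02 (SE 0.08, adjusted p = 0.8224). Other bright probe sets of Ccnd1 differed by -0.43 and 0.13, so the result for this gene rests on the choice of probe set. The level of a transcript does not give that of the protein, which for p27 is set largely by its breakdown.

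Genes that supply a growing cell were lower as well. Of 22 genes of nucleotide synthesis, 21 fell and 1, Ppat, did not pass the test, with a median of -0.73. Nme1, a nucleoside diphosphate kinase, was at 13.39, 13.22 and 13.09 at 6 h and 11.76, 11.80 and 11.74 at 24 h, and fell by 1.47 (SE 0.08, adjusted p = 4.82e-07). Dhodh and Cad, of the pyrimidine route, fell by 1.41 and 1.10, and Gart, of the purine route, by 1.18. Ppat, the first enzyme of purine synthesis, was at 9.12, 9.68 and 9.62 at 6 h and 9.54, 9.62 and 9.26 at 24 h, with 1 low array at 6 h and a difference of 0.00 (SE 0.15, adjusted p = 0.9908).

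Ribosome assembly followed the same direction. Of 56 members of the nucleolar list, 47 fell, 0 rose and 9 did not pass the test, and the median was -0.58. With DMSO 24 h replicate 3 left out 1 was called higher. Mrto4, an assembly factor of the large subunit, was at 10.85, 10.48 and 10.41 at 6 h and 8.51, 8.23 and 8.71 at 24 h, and fell by 2.10 (SE 0.15, adjusted p = 1.54e-06). Rrp12, a factor of small subunit export, fell by 1.88, and Fbl, the methyltransferase fibrillarin, was at 13.45, 13.32 and 13.21 at 6 h and 12.12, 12.14 and 11.95 at 24 h and fell by 1.26. For Nop56, Rrs1 and Ebna1bp2 the falls were 1.06, 0.70 and 1.17. The ribosomal proteins themselves moved little: 16 of 39 fell, 0 rose, and the differences ran from -0.30 to 0.08. With arrays centred on their medians 36 of them were called lower, and without the trend of the variance 7. Rpl35a, with values of 14.96, 14.91 and 14.90 at 6 h and 14.62, 14.63 and 14.67 at 24 h, fell by 0.28.

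Aminoacyl-tRNA synthetases and their scaffold proteins fell in 15 of 21 cases and rose in 2, Qars1 and Cars1, by 0.17 and 0.39. With arrays centred on their medians these differed by 0.05 (adjusted p = 0.6044) and 0.26 (adjusted p = 0.1340), and the Qars1 call was lost too when any array but DMSO 6 h replicate 3 or DMSO 24 h replicate 3 was left out. Cars1 differed by 0.21 (adjusted p = 0.1061) with DMSO 6 h replicate 1 left out and by 0.11 (adjusted p = 0.3295) as the mean of its probe sets, and its call was lost too with DMSO 24 h replicate 1 or DMSO 24 h replicate 2 left out. The scaffold genes Aimp2 and Aimp1 fell by 1.35 and 1.13 and the valine enzyme Vars1 by 1.21. With the 72 h DMSO arrays in the fit 7 members were called lower. In the polyamine list 5 of 17 genes rose (29.4%), 7 fell (41.2%) and 5 did not pass the test. Over all genes 29.3% were called higher and 32.8% lower. Odc1, ornithine decarboxylase, was at 12.37, 12.37 and 12.36 at 6 h and 11.66, 11.78 and 11.59 at 24 h and fell by 0.69, and the spermidine synthase gene Srm fell by 1.12. Sat1, which starts polyamine breakdown, moved the other way, at 11.79, 11.61 and 11.66 at 6 h and 12.73, 12.73 and 12.87 at 24 h, a rise of 1.09. Of 35 proteasome subunits 3 rose, 27 fell and 5 did not pass the test, and 5 were called higher with DMSO 24 h replicate 3 left out. Psmd13, of the regulatory particle, fell by 1.24 and Psmd7 by 0.98.

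Heat shock proteins and their partners fell in 14 of 19 cases and rose in 3. The cochaperones of HSP90 had the larger falls: Stip1 was at 12.13, 12.04 and 11.99 at 6 h and 10.92, 10.91 and 10.80 at 24 h, and fell by 1.17 (SE 0.07, adjusted p = 7.21e-07). Ahsa1 and Chordc1 fell by 1.25 and 1.25, and the mitochondrial chaperonin gene Hspd1 by 0.90. The small heat shock protein gene Hspb1 rose by 0.49, as did Dnajb4 and the collagen chaperone gene Serpinh1, by 0.32 and 0.11. With arrays centred on their medians, Dnajb4 differed by 0.19 (adjusted p = 0.0578) and Serpinh1 by -0.01 (adjusted p = 0.8301), and the Serpinh1 call was also lost when any array but DMSO 6 h replicate 3 was left out. Genes of the endoplasmic reticulum (ER) did not move one way, 11 of 30 higher and 10 lower, close to the 29.3% and 32.8% of all genes. Creld2 was at 13.11, 12.93 and 12.90 at 6 h and 11.38, 11.27 and 11.48 at 24 h and fell by 1.60, and the main ER chaperone gene Hspa5 fell by 0.24, whereas Pdia6 rose by 0.45. The ER count upward was 4 with arrays centred on their medians, and 7 when either DMSO 6 h replicate 2 or DMSO 24 h replicate 1 was left out.

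Genes of amino acid supply moved in both directions. Of 29 genes of the ATF4 list, 11 rose (37.9%), 12 fell (41.4%) and 6 did not pass the test. Over all genes 29.3% were called higher and 32.8% lower. The enzymes of serine and one-carbon synthesis fell: Phgdh, the first of the serine route, was at 12.37, 12.21 and 12.29 at 6 h and 11.22, 11.25 and 11.02 at 24 h, and fell by 1.13 (SE 0.08, adjusted p = 1.57e-06), and Psat1 and Shmt2 fell by 0.92 and 1.13. Asns, asparagine synthetase, was at 12.02, 11.94 and 11.87 at 6 h and 10.96, 10.90 and 11.04 at 24 h and fell by 0.98. Chac1, a glutathione-degrading enzyme, was at 6.55, 6.15 and 6.62 at 6 h and 8.34, 8.31 and 8.47 at 24 h and rose by 1.93. The stress gene Ddit4 differed by -0.26 (SE 0.10, adjusted p = 0.0509), and by -0.39 (adjusted p = 0.0102) with arrays centred on their medians, and Ddit3, which encodes CHOP, fell by 0.67. In a fit with the 72 h DMSO arrays, 1 of the list was called higher and 2 lower. As a plain mean of the deposited values, the list stood 1.44 above its 6 h mean on DMSO 72 h replicate 3. On the other 72 h arrays it stood -0.82 and -0.41 from that mean.

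Respiratory chain genes were called lower more often than higher. Of 66 respiratory chain subunits, 3 rose, 38 fell and 25 did not pass the test, with a median of -0.20. Ndufab1, of complex I, fell by 0.73 and Uqcrq, of complex III, by 0.55. In the glycolysis and hypoxia list 16 of 32 fell (50%) and 12 rose (37.5%), against 32.8% and 29.3% of all genes. Ldha, lactate dehydrogenase A, was at 14.32, 14.31 and 14.26 at 6 h and 13.79, 13.74 and 13.76 at 24 h and fell by 0.54, and the hypoxia genes Ankrd37, Pdk1 and Bnip3 fell by 1.85, 0.64 and 0.57. The aldolase gene Aldoc was at 3.63, 3.51 and 3.47 at 6 h and 8.01, 8.01 and 7.79 at 24 h. All 3 arrays at 6 h lay below their array medians, so that the difference of 4.40 is 3.93 when values below the median are set to it. In the fatty acid oxidation list 7 of 21 genes were higher (33.3%), near the share of all genes, and 4 were lower (19%), below it. Decr1 and Acadvl, of the mitochondrial route, rose by 0.62 and 0.88, and Cpt1a, which controls entry of fatty acids into mitochondria, was at 12.07, 12.25 and 12.25 at 6 h and 11.70, 11.69 and 11.70 at 24 h and fell by 0.49, while it differed by -0.26 (adjusted p = 0.0984) as the mean of its probe sets. The median of that list, 0.11, was -0.02 after median centring.

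**Figure D3:**
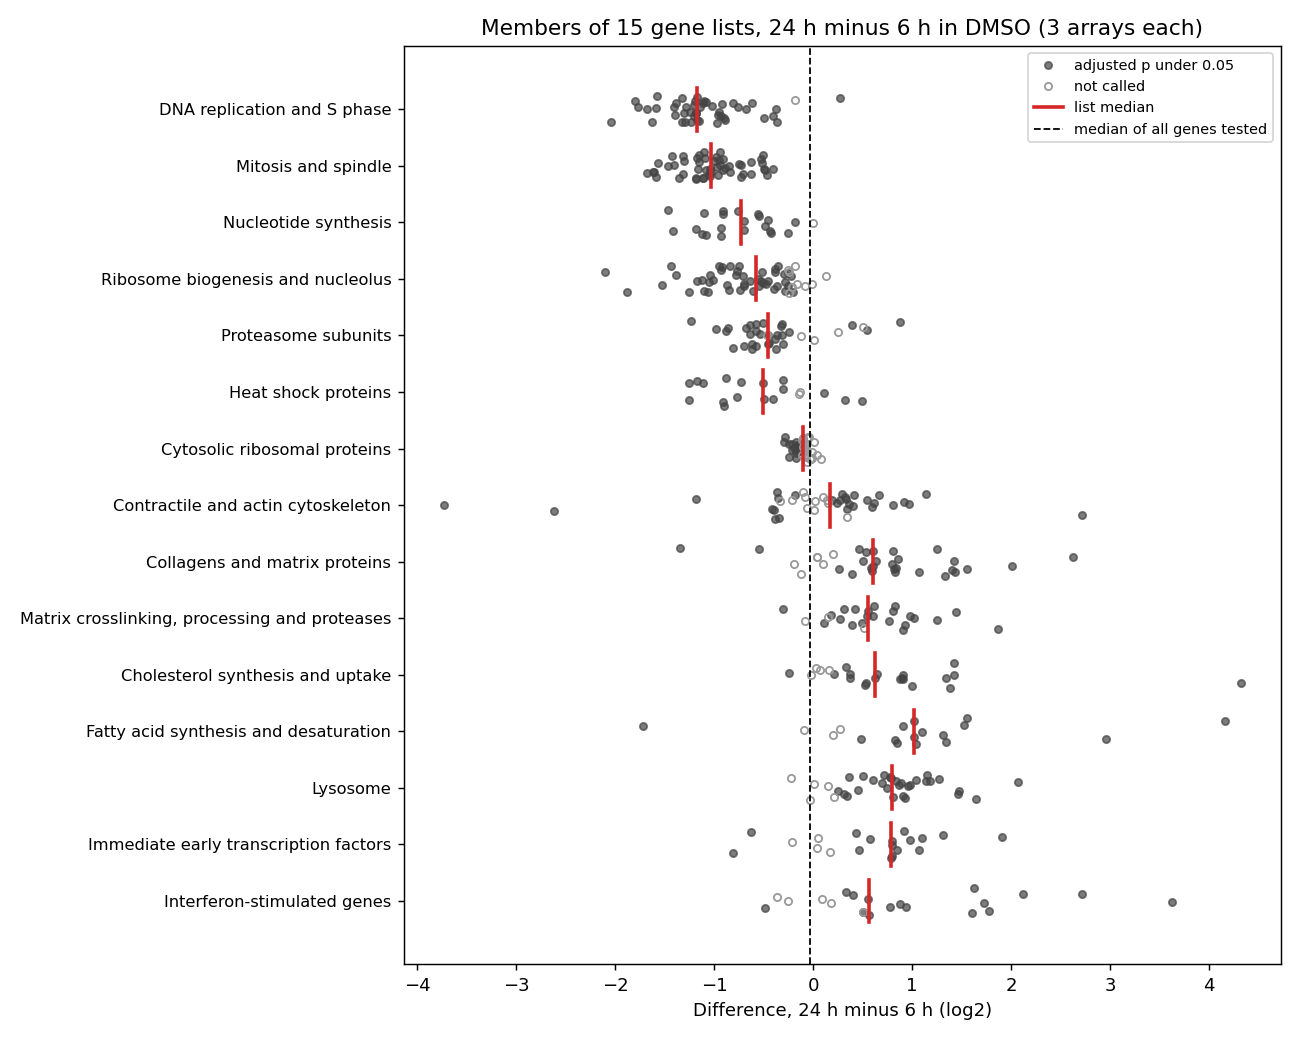
Difference between 24 h and 6 h (log2) for each tested member of 15 gene lists, with filled points for adjusted p under 0.05, open points for genes not called and red bars at list medians. The medians run from -1.17 for replication to 1.02 for fatty acid synthesis, beside -0.03 for all genes (dashed line).

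Genes of lipid synthesis were higher at 24 h. Of 23 cholesterol genes, 18 rose, 1 fell and 4 did not pass the test, beside 29.3% of all genes called higher. Tm7sf2, a sterol reductase, was at 7.74, 7.24 and 6.80 at 6 h and 11.50, 11.40 and 11.84 at 24 h, and rose by 4.32 (SE 0.21, adjusted p = 4.26e-07), 19.9-fold. Lss, lanosterol synthase, was at 8.99, 8.96 and 9.08 at 6 h and 10.38, 10.38 and 10.42 at 24 h and rose by 1.38, and Ebp and Acat2 rose by 1.42 and 0.87. Genes long used as readouts of the sterol sensor moved less, with rises of 0.65 for Insig1 and 0.38 for Sqle, the squalene epoxidase. The regulator Srebf2 differed by 0.07 (SE 0.08, adjusted p = 0.5062), and Idi1, isopentenyl diphosphate isomerase, by -0.02 (SE 0.06, adjusted p = 0.7366). The gene that fell was Insig2, by 0.25 on the probe set used, while its other probe set, nearly as bright, differed by 0.30, so the sign for Insig2 rests on the choice of probe set. With the 72 h DMSO arrays in the fit 8 members were called higher, and 9 with all 18 cell arrays. CCAAT lay before the start of 15 of 19 of these genes (78.9%). The share was 34.3% of all promoters and 36.8% of those of genes tested. The sterol element, searched as TCACNCCAC, lay in 0 of 19 cholesterol promoters and in 0 of 15 of fatty acid synthesis. It lay in 1.0% of all promoters.

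Fatty acid synthesis had the highest median of the lists of at least 5 tested genes, 1.02, with 14 of 18 members higher and 1, Gpam, lower by 1.71. Acss2, which makes acetyl-CoA from acetate, was at 9.30, 9.05 and 8.88 at 6 h and 11.95, 11.96 and 12.19 at 24 h, and rose by 2.95 (SE 0.11, adjusted p = 1.81e-07). The desaturase genes Scd2 and Fads1 rose by 1.34 and 1.56, and Elovl5, an elongase, by 1.10. Scd, stearoyl-CoA desaturase, was at 2.42, 2.41 and 2.41 at 6 h and 6.42, 6.86 and 6.45 at 24 h. At 6 h it lay below the median on all arrays, and the difference of 4.16 is 2.57 with values limited at the median. Fasn, fatty acid synthase, was at 11.36, 11.32 and 11.23 at 6 h and 11.86, 11.81 and 11.68 at 24 h and rose by 0.48. The regulator Srebf1 differed by 0.20 (SE 0.12, adjusted p = 0.1635).

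Lysosomal genes rose together. Of 34 members, 29 rose, 0 fell and 5 did not pass the test, with a median of 0.79. With either DMSO 6 h replicate 1 or DMSO 24 h replicate 2 left out, 1 member was called lower. Ctsd, the protease cathepsin D, was at 10.98, 11.07 and 11.03 at 6 h and 12.22, 12.24 and 12.15 at 24 h, and rose by 1.18 (SE 0.06, adjusted p = 4.91e-07). Ctsa, protective protein cathepsin A, was at 10.98, 11.01 and 11.09 at 6 h and 12.30, 12.37 and 12.23 at 24 h and rose by 1.27. In both genes the spread within a time was small beside the gap. Lamp2, of the lysosomal membrane, rose by 0.88, Smpd1, acid sphingomyelinase, by 1.04, and Ctsb by 0.45. Autophagy genes were called less often than genes in general. Of 24, 5 were higher (20.8%) and 4 lower (16.7%), against 29.3% and 32.8% of all genes. The count lower was 2 with DMSO 6 h replicate 1 left out and 1 with DMSO 24 h replicate 1 left out. Wipi1, of the isolation membrane, rose by 0.71 on the probe set used, while a dimmer one differed by -1.69. The E-box CACGTG, bound by TFEB and TFE3 and also by MYC and clock factors, lay in 7 of 27 lysosomal promoters (25.9%), against 8.9% of genes tested and 5.8% of all. It also lay before genes of the nucleolar list, which fell, in 12 of 51 (23.5%). The lysosomal genes with the motif that rose most are shown, CACGTG in capitals.
Gaa (chr10:105028105-105028354, plus strand): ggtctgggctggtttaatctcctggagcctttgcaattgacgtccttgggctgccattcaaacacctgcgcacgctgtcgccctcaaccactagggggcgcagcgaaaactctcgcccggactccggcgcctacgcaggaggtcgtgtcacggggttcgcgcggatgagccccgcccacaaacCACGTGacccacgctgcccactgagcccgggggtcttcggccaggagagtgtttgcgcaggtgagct
Glb1 (chr8:122963468-122963717, plus strand): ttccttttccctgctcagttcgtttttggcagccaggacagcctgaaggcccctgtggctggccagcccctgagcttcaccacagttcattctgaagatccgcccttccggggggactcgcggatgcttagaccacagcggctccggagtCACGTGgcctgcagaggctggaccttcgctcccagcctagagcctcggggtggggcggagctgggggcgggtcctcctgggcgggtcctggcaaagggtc
Gaa, acid alpha-glucosidase, rose by 1.64 and Glb1, beta-galactosidase, by 1.47. The motif begins 67 bases before the start of Gaa and 100 before that of Glb1.

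Extracellular matrix genes made up another group that was higher at 24 h. Of 33 tested collagens and matrix proteins, 25 rose, 2 fell and 6 did not pass the test. The count lower was 4 with DMSO 6 h replicate 1 left out, Fn1 among them at -0.33 (adjusted p = 0.0013), and 4 with arrays centred on their medians. Eln, elastin, was at 7.58, 7.69 and 7.94 at 6 h and 10.25, 10.47 and 10.37 at 24 h, and rose by 2.63 (SE 0.11, adjusted p = 3.65e-07). Agrn and Lama5, of the basement membrane, were at 24 h levels above all 6 h arrays and rose by 1.55 and 1.26. The fibrillar collagen gene Col3a1 was at 12.02, 12.24 and 12.46 at 6 h and 13.65, 13.70 and 13.60 at 24 h and rose by 1.41, and Col1a2 rose by 2.00. Col1a1, whose chain pairs with that of Col1a2 in type I collagen, was at 7.76, 7.83 and 7.99 at 6 h and 7.65, 8.13 and 7.92 at 24 h, with a difference of 0.04 (SE 0.14, adjusted p = 0.8298). Fibronectin, Fn1, differed by -0.20 (SE 0.10, adjusted p = 0.1274), and by -0.32 (adjusted p = 0.0103) with arrays centred on their medians. The members that fell were Fbln2, by 1.34, and Col14a1, by 0.55. As the mean of its probe sets Col14a1 differed by -0.31 (adjusted p = 0.0983). Mgp, matrix Gla protein, an inhibitor of calcification outside the list, was at 5.89, 5.24 and 4.64 at 6 h and 9.38, 9.49 and 9.56 at 24 h and rose by 4.22 (SE 0.25, adjusted p = 9.02e-07).

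Enzymes that process the matrix rose in 21 of 25 cases, and 1, the prolyl hydroxylase gene P4ha1, fell by 0.30. Timp3, an inhibitor of metalloproteinases, was at 9.04, 9.19 and 9.11 at 6 h and 10.90, 10.96 and 11.08 at 24 h, and rose by 1.87 (SE 0.08, adjusted p = 3.65e-07). Plat, tissue plasminogen activator, rose by 1.25, Pcolce, which enhances procollagen cleavage, by 0.77, and Mmp11 by 0.98. The crosslinking enzyme gene Lox was at 14.47, 14.79 and 14.81 at 6 h and 14.74, 14.79 and 14.98 at 24 h, with overlapping groups and a difference of 0.15 (SE 0.09, adjusted p = 0.1814), and of 0.21 (adjusted p = 0.0414) after quantile normalization.

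The contractile list divided. Of 40 members, 19 rose (47.5%), 10 fell (25%) and 11 did not pass the test, against 29.3% and 32.8% of all genes. With median centring 15 were higher and 15 lower. Several smooth muscle genes were lower: Acta2, smooth muscle alpha-actin, was at 12.05, 12.32 and 12.28 at 6 h and 10.94, 10.89 and 11.29 at 24 h, and fell by 1.18 (SE 0.11, adjusted p = 1.02e-05). Actg2, the gamma form, was at 8.43, 7.62 and 7.66 at 6 h and 5.31, 5.38 and 5.19 at 24 h and fell by 2.61. The myosin light chain gene Myl9 was at 7.13, 5.89 and 6.04 at 6 h and 2.65, 2.72 and 2.50 at 24 h. Its 24 h values lay below the array medians, and the difference of -3.73 is -2.22 with values limited there. Tagln, transgelin, fell by 0.41. Other members rose, by 0.54 for vinculin, Vcl, and 0.34 for Rhob, although a second Vcl probe set differed by -0.46. Mylk, the myosin light chain kinase, was at 5.63, 5.30 and 4.53 at 6 h and 7.73, 8.05 and 7.83 at 24 h and rose by 2.72 (SE 0.25, adjusted p = 7.79e-06), and Cdc42ep3, which binds septins, rose by 1.14 (SE 0.06, adjusted p = 4.82e-07).

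Among integrins, cadherins and junction genes, 20 of 45 on the array passed the filter, and of these 13 rose, 2 fell and 5 did not pass the test. Itga1, a collagen-binding integrin, was at 8.36, 9.03 and 9.04 at 6 h and 11.54, 11.33 and 11.64 at 24 h, and rose by 2.70 (SE 0.17, adjusted p = 1.01e-06). F11r, which encodes the tight junction protein JAM-A, was at 11.29, 11.25 and 11.13 at 6 h and 12.14, 12.07 and 12.12 at 24 h and rose by 0.89. Jup, plakoglobin, rose by 0.60, Tjp1, which encodes ZO-1, by 0.54 on the probe set used but by 0.26 (adjusted p = 0.3517) as a mean of its probe sets, and Gja1, connexin 43, by 0.41. Cdh2, N-cadherin, was at 7.30, 7.35 and 7.34 at 6 h and 7.72, 7.64 and 7.72 at 24 h and rose by 0.36, a call that was not kept with arrays centred on their medians, 0.23 (adjusted p = 0.1222). Ocln, occludin, differed by -0.07 (SE 0.16, adjusted p = 0.7148), and E-cadherin, Cdh1, did not pass the filter.

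Early response genes, which serum and growth factors induce within minutes, were higher at 24 h than at 6 h. Of 20 members, 14 rose and 2, Klf4 and Klf2, fell by 0.81 and 0.63. Fos was at 11.05, 11.15 and 11.19 at 6 h and 12.01, 12.02 and 12.11 at 24 h, and rose by 0.92 (SE 0.07, adjusted p = 2.12e-06). Egr2 was at 6.77, 6.48 and 6.78 at 6 h and 8.62, 8.61 and 8.54 at 24 h and rose by 1.91, and Srf, the serum response factor, rose by 1.31 on the probe set used. A dimmer Srf probe set differed by 0.05. Jun, Junb and Egr1 rose by 0.46, 0.43 and 0.80. Myc was at 8.83, 8.54 and 8.04 at 6 h and 9.51, 9.32 and 9.52 at 24 h and rose by 0.98 (SE 0.17, adjusted p = 6.66e-04). All 3 arrays at 24 h were above all 3 at 6 h for Myc.

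Feedback regulators of ERK and targets of FOXO and AKT signalling rose in 14 of 20 cases and fell in 0, or in 1 with DMSO 24 h replicate 2 left out. Spry1 and Spry2, which restrain receptor tyrosine kinase signalling, rose by 1.88 and 0.86, and the ERK phosphatase gene Dusp5 was at 7.84, 7.68 and 7.58 at 6 h and 9.12, 8.93 and 8.98 at 24 h and rose by 1.31 (SE 0.11, adjusted p = 4.78e-06). Txnip, an inhibitor of thioredoxin and of glucose uptake, was at 9.46, 9.60 and 9.51 at 6 h and 11.62, 11.56 and 11.82 at 24 h and rose by 2.14, the largest rise of that list. Irs2, of the insulin pathway, rose by 0.43. Hbegf, an EGF receptor ligand, differed by -0.20 (SE 0.09, adjusted p = 0.0862), and by -0.33 (adjusted p = 0.0152) with arrays centred on their medians.

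Growth factors, their receptors and binding proteins were called higher in 21 of 33 cases and lower in 1, the receptor gene Tgfbr1, by 0.21, a call lost when DMSO 24 h replicate 1, DMSO 6 h replicate 2 or DMSO 6 h replicate 3 was left out, while 2 were lower with DMSO 24 h replicate 2 left out. Egfr, the EGF receptor, was at 11.06, 11.36 and 11.27 at 6 h and 12.64, 12.43 and 12.56 at 24 h, and rose by 1.31 (SE 0.09, adjusted p = 1.29e-06). The IGF binding proteins Igfbp6, Igfbp7 and Igfbp2 rose by 1.56, 0.98 and 0.70. The ligands Bmp4 and Tgfb2 rose by 1.02 and 0.69. Of 19 targets of TGF-beta and BMP, 11 rose, among them Id1, Id3 and Smad7 by 0.48, 0.37 and 0.56, and 2 fell, Nog, a BMP antagonist, by 1.48 and Snai1 by 0.39. As the mean of its probe sets, Smad7 differed by 0.28 (adjusted p = 0.1857), and Snai1 by -0.38 (adjusted p = 0.0558) with DMSO 24 h replicate 1 left out. The count lower of that list was 1 with either DMSO 24 h replicate 1 or DMSO 24 h replicate 3 left out. Of 18 YAP targets, 13 rose. Ccn1, a matricellular protein, was at 12.11, 12.11 and 11.91 at 6 h and 14.05, 13.87 and 13.89 at 24 h, and rose by 1.90 (SE 0.07, adjusted p = 1.81e-07), whereas Ccn2 rose by 0.24, or 0.11 (adjusted p = 0.1101) after centring, and Ankrd1 differed by -0.14 (SE 0.35, adjusted p = 0.7381). The YAP targets that fell were Gadd45b, by 0.52, and Arhgef17, by 0.46.

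Clock genes were called higher in 7 of 14 cases and lower in 2, against 29.3% and 32.8% of all genes. The count lower was 1 with DMSO 6 h replicate 1, DMSO 24 h replicate 1 or DMSO 24 h replicate 3 left out. Per2, a core repressor, was at 3.14, 3.14 and 3.47 at 6 h and 5.40, 5.39 and 5.63 at 24 h, and rose by 2.22 (SE 0.19, adjusted p = 4.78e-06). At 6 h it lay below the median on all arrays, so Per2 passed the filter only through the 24 h arrays, where it was high. Its limited difference is 1.47. Dbp, an output factor, was at 5.83, 5.14 and 5.17 at 6 h and 7.40, 7.49 and 7.29 at 24 h and rose by 2.00, and Nr1d2 rose by 0.88. The core activator Bmal1 differed by -0.15 (SE 0.16, adjusted p = 0.4263) and Per1 by -0.23 (SE 0.18, adjusted p = 0.2817), and the genes that fell were Cry1 and Clock, by 0.56 and 0.35. Cry1 differed by -0.50 (adjusted p = 0.0632) with DMSO 24 h replicate 1 left out, and Clock by -0.02 (adjusted p = 0.8820) as the mean of its probe sets. With 1 sampling per time and no series of hours, a phase cannot be read from these values. In the glucocorticoid list 8 of 12 rose, with Tsc22d3, which encodes GILZ, at 10.79, 10.99 and 10.74 at 6 h and 11.83, 11.90 and 11.96 at 24 h and 1.05 higher, while Fkbp5, another classical target, was at 9.24, 9.04 and 9.30 at 6 h and 8.45, 8.49 and 8.38 at 24 h and fell by 0.76.

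NRF2 targets were more often lower. Of 21 members, 6 rose, 12 fell and 3 did not pass the test. Nqo1, the quinone reductase, was at 13.29, 13.25 and 13.45 at 6 h and 12.10, 12.12 and 12.03 at 24 h, and fell by 1.25 (SE 0.07, adjusted p = 4.91e-07). Hmox1, heme oxygenase, was at 8.01, 7.35 and 7.79 at 6 h and 5.80, 5.79 and 5.64 at 24 h and fell by 1.98, and Gclm, of glutathione synthesis, fell by 1.18. The glutathione transferase gene Gsta4 was at 11.35, 11.16 and 11.13 at 6 h and 12.05, 12.13 and 12.05 at 24 h and rose by 0.87. Of 16 genes of the p53 list, 8 fell (50%) and 3 rose (18.8%), against 32.8% and 29.3% of all genes. Phlda3, an inhibitor of AKT, was at 11.39, 11.18 and 11.20 at 6 h and 10.00, 9.92 and 9.75 at 24 h and fell by 1.36 (SE 0.09, adjusted p = 1.27e-06), and Mdm2 and Bbc3, which encodes PUMA, fell by 0.53 and 0.59. The list members Tp53inp2 and Gadd45a rose by 1.38 and 0.68.

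The aryl hydrocarbon receptor gene Ahr was at 3.16, 5.51 and 4.89 at 6 h and 7.32, 6.92 and 7.05 at 24 h, and rose by 2.58 (SE 0.47, adjusted p = 7.96e-04). Its 6 h arrays were far apart, DMSO 6 h replicate 1 the lowest. Of 7 tested genes of the AhR list, Ahr itself counted among them, 3 rose and 2 fell, or 1 with DMSO 24 h replicate 3 left out. Over all genes 29.3% were called higher and 32.8% lower. Cyp1b1 was at 5.75, 5.76 and 5.78 at 6 h and 5.38, 5.33 and 4.80 at 24 h and fell by 0.59, and Cyp1a1 did not pass the filter. The difference of Cyp1b1 was -0.41 (adjusted p = 0.0503) when DMSO 24 h replicate 3 was left out. In the metal list 10 of 14 rose, among them the ferroxidase gene Cp, at 6.30, 6.07 and 5.95 at 6 h and 7.36, 7.67 and 7.40 at 24 h, by 1.37, and the copper pump gene Atp7a by 0.52. Tfrc, the transferrin receptor, differed by -0.10 (SE 0.09, adjusted p = 0.3867), and by -0.22 (adjusted p = 0.0390) with arrays centred on their medians.

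Interferon-stimulated genes were higher at 24 h, 15 of 21, with 1, Irf1, lower by 0.48. With DMSO 24 h replicate 3 left out 2 were lower. Stat2, a subunit of the interferon-responsive factor, was at 8.38, 8.31 and 8.18 at 6 h and 9.87, 9.92 and 9.89 at 24 h, and rose by 1.60 (SE 0.09, adjusted p = 6.58e-07). Rig1, the RNA sensor RIG-I, was at 7.92, 8.15 and 7.74 at 6 h and 9.47, 9.69 and 9.50 at 24 h and rose by 1.62, and Isg15, a ubiquitin-like modifier, was at 7.49, 6.96 and 6.25 at 6 h and 8.64, 8.42 and 8.82 at 24 h and rose by 1.73. Mx2, an antiviral GTPase, was at 3.50, 3.97 and 3.24 at 6 h and 7.02, 7.12 and 7.42 at 24 h. Its values at 6 h lay below or near the medians, and its difference of 3.62 is 3.18 when limited. The class I gene RT1-S3 and B2m, beta-2 microglobulin, rose by 2.71 and 0.56, and a near-identical class I copy may share the probes of RT1-S3. In the NF-kB list 9 of 15 rose, against 29.3% of all genes, and 1, Nfkbib, an inhibitor of the pathway, fell by 1.74. Saa3, an acute phase gene, was at 6.37, 6.96 and 6.78 at 6 h and 9.17, 9.10 and 9.01 at 24 h and rose by 2.39 (SE 0.15, adjusted p = 1.09e-06), Nfkbiz rose by 1.00 and the adhesion gene Icam1 by 0.35. Of the NF-kB list, 3 were called higher with arrays centred on their medians, 4 with DMSO 24 h replicate 2 left out and 5 with either DMSO 6 h replicate 3 or DMSO 24 h replicate 1 left out.

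Of the tubule injury list 9 of 13 tested genes rose and 2 fell, against 29.3% and 32.8% of all genes. Spp1, osteopontin, was at 13.70, 13.68 and 13.75 at 6 h and 14.33, 14.26 and 14.36 at 24 h, and rose by 0.61 (SE 0.05, adjusted p = 3.13e-06), Clu, clusterin, rose by 0.46 and Gpnmb, a lysosomal membrane glycoprotein, by 1.01. Havcr1, which encodes KIM-1, and Lcn2 did not pass the filter, and Cd44 fell by 0.89. Vim, vimentin, was at 15.25, 15.33 and 15.27 at 6 h and 15.13, 15.11 and 15.30 at 24 h, with a difference of -0.10 (SE 0.05, adjusted p = 0.1212), and of -0.23 (adjusted p = 0.0028) with arrays centred on their medians. Among markers of other cells, the podocyte and mesothelial factor Wt1 fell by 1.16, Synpo, synaptopodin, rose by 1.57, and the leukocyte genes Cd14 and Itgax rose by 0.86 and 2.38. Itgax passed the filter only through the 3 arrays at 24 h. Its mean was 2.65 at 6 h, below the array medians, and 5.03 at 24 h, so part of its difference lies near background. The leukocyte markers Ptprc and Tyrobp were below the median on all 6 arrays. For all 23 leukocyte markers on the array, the log2 of the summed linear level ran from 11.33 to 11.52 at 6 h and from 12.20 to 12.44 at 24 h. Cd14 alone had means of 11.39 and 12.25 at 6 h and 24 h, and 21 of the markers were above the median on 0 arrays. The part of these markers in the injury genes was not tested.

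The largest changes of single genes often started or ended below the array medians, whose mean was 4.07. Genes below the medians on all arrays of a time passed the filter only through the other time. Aldoc, Adhfe1, Scd and Izumo4 passed through 24 h, and Nppb, Myl9 and Gprin1 through 6 h. The filter thus favoured a difference in these genes, and their calls are no separate support for it. Adhfe1, an alcohol dehydrogenase of mitochondria, was at 2.52, 2.51 and 2.41 at 6 h and 6.80, 6.73 and 6.79 at 24 h, a difference of 4.29 and of 2.77 when limited. Selenop, the selenium carrier selenoprotein P, was at 4.15, 4.87 and 3.99 at 6 h and 8.13, 8.44 and 8.33 at 24 h, and rose by 3.97 (SE 0.22, adjusted p = 5.83e-07). Selenow, another selenoprotein, was at 8.65, 8.39 and 8.25 at 6 h and 6.49, 6.29 and 6.20 at 24 h and fell by 2.10. Megf6, Tmem176a and Selenbp1, a selenium-binding protein, rose by 3.97, 3.96 and 3.86 from 6 h means of 5.18, 5.02 and 4.51. Nppb, which encodes B-type natriuretic peptide, was at 7.44, 6.20 and 6.37 at 6 h and 2.52, 2.61 and 2.62 at 24 h, a difference of -4.09 and of -2.54 when limited. The kinase gene Camkk2 was at 7.30, 7.23 and 7.61 at 6 h and 4.02, 4.28 and 3.79 at 24 h and fell by 3.35. Fam72a and Sapcd2 fell by 2.41 and 2.16. Gprin1, at 6.45, 4.03 and 4.64 at 6 h and 3.31, 2.60 and 2.76 at 24 h, fell by 2.15 (adjusted p = 0.0039), and with limited values it differed by -0.90 (adjusted p = 0.1252), which is not past the threshold. Izumo4, at 2.99, 2.75 and 2.70 at 6 h and 6.78, 6.74 and 6.49 at 24 h, differed by 3.86, 2.66 when limited.

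**Figure D4:**
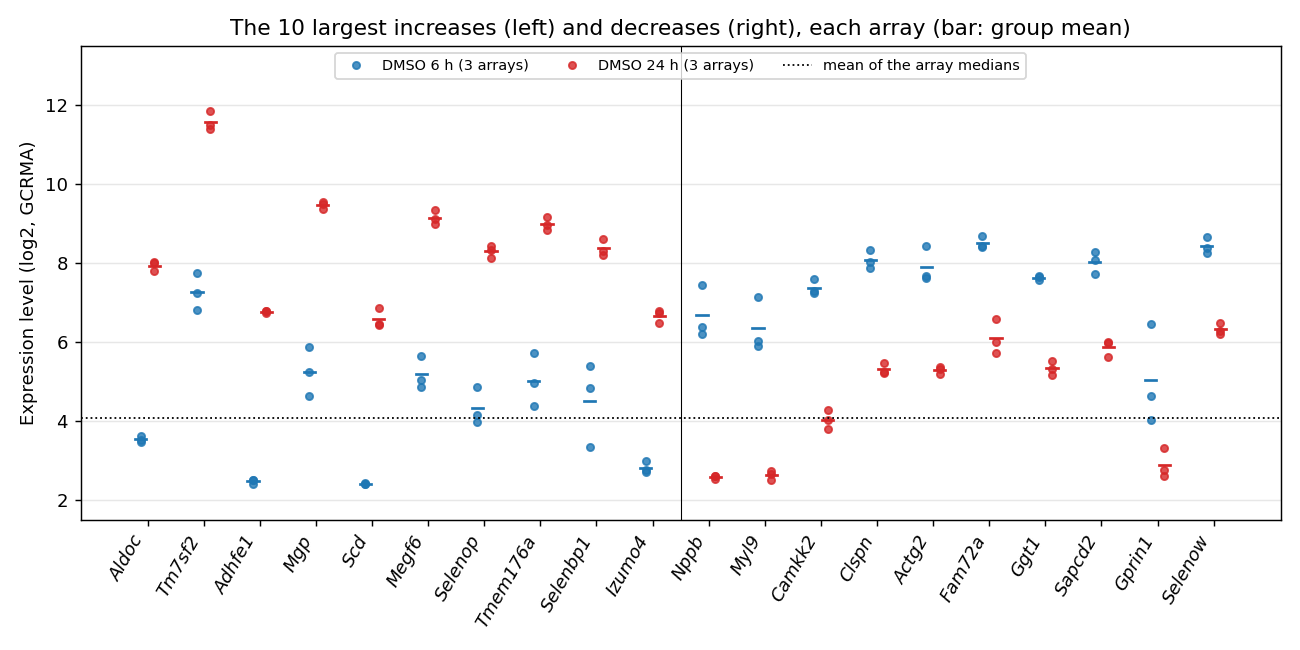
Expression level (log2) on each array at 6 h (blue) and 24 h (red) for the 10 largest increases (left) and decreases (right) among genes called without overlap, with bars at group means. The dotted line is the mean of the array medians, 4.07; all arrays of Aldoc, Adhfe1, Scd and Izumo4 lie below it at 6 h, and all of Nppb, Myl9 and Gprin1 at 24 h.

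The DMSO arrays at 72 h were set beside these values without a test, since 2 of them stood apart from their group: 438 and 619 genes lay more than 1 from the mean of the other 2 arrays on replicates 1 and 3. The mean level of the replication list, relative to its 6 h mean, was -1.05, -1.01 and -1.20 on the arrays at 24 h and -1.54, -1.31 and -1.39 at 72 h. For mitosis the values were -0.97, -0.98 and -1.11 and -1.55, -1.08 and -1.23. The 72 h arrays lay below the lowest 24 h array for replication on all 3, and for mitosis on 2 of 3. Lysosomal genes were at 0.76, 0.80 and 0.76 and then 1.09, 1.10 and 1.01, above every 24 h array. Cholesterol genes were at 0.79, 0.78 and 0.79 at 24 h and at -1.46, -0.29 and 0.78 at 72 h, and fatty acid synthesis at 1.08, 1.09 and 0.96 and -0.55, -0.01 and 0.99. For both lipid lists the 72 h arrays ran from below the 6 h mean to the 24 h level. Among single genes, Mcm5 was at 8.01, 8.39 and 7.97 at 72 h, Plk1 at 7.49, 8.18 and 8.03, and Ctsd at 12.72, 12.54 and 12.58. Tm7sf2 was at 8.60, 9.81 and 11.60, above all its 6 h arrays. It thus differed from the cholesterol list, whose mean lay below that of 6 h on replicates 1 and 2. With these arrays in the fit 34 of the genes named here lost their call between 6 h and 24 h: Acat2, Asns, Bnip3, Cars1, Cd44, Cdh2, Cdt1, Chac1, Clock, Cpt1a, Cry1, Ddit3, Fasn, Fbln2, Gadd45a, Hspa5, Id3, Insig1, Irf1, Jun, Klf4, Mme, P4ha1, Pdk1, Qars1, Rhob, Serpinh1, Shmt2, Snai1, Spp1, Sqle, Tagln, Tgfbr1 and Top2a.

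**Figure D5:**
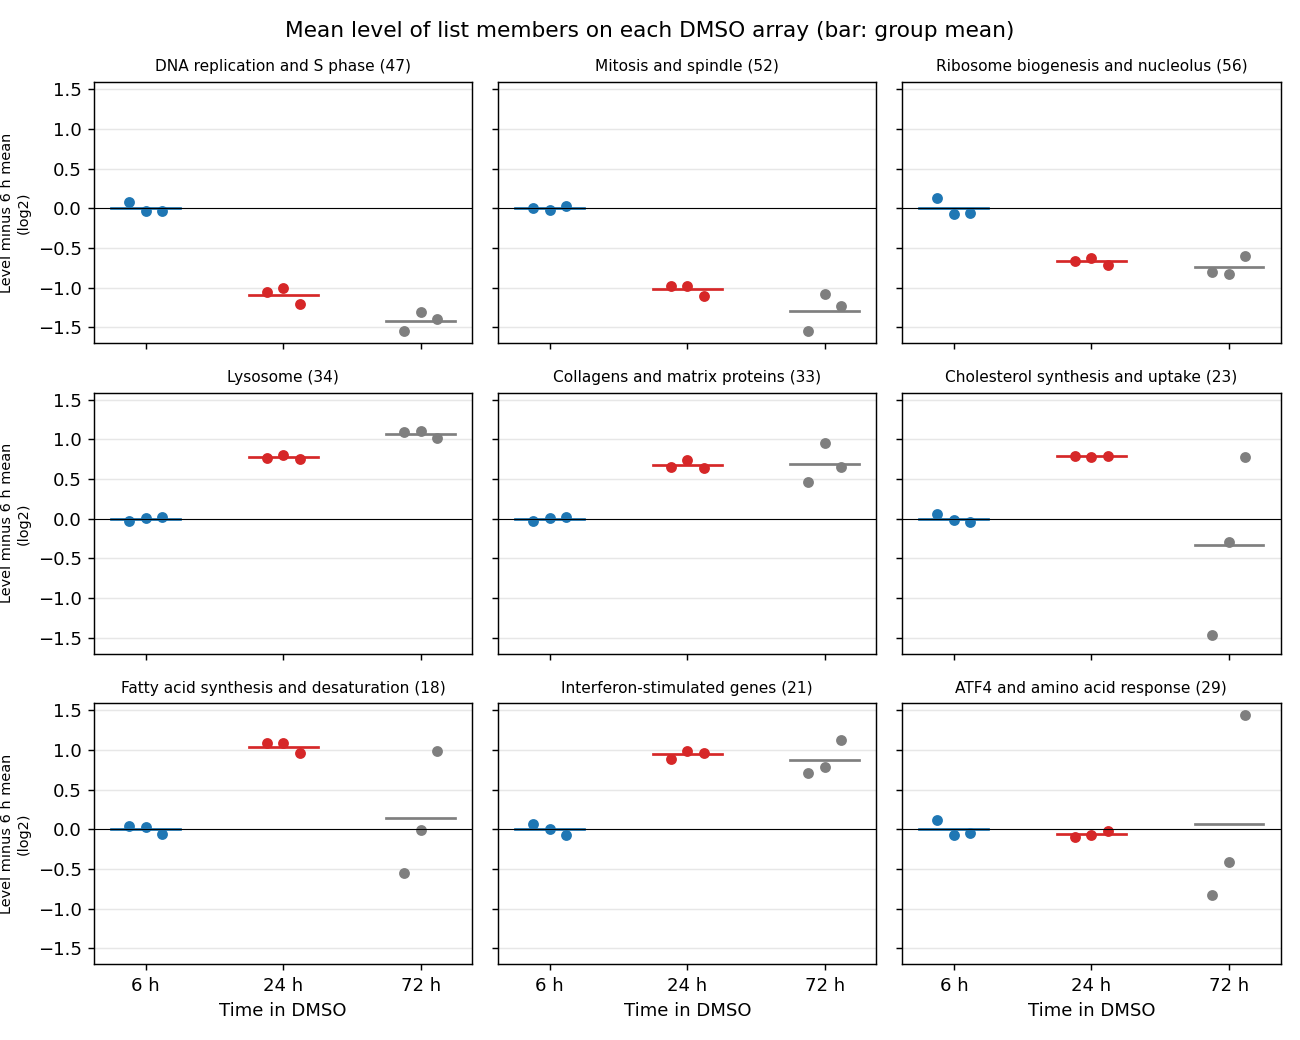
Mean level of the tested members of 9 gene lists (number in brackets) on each DMSO array, as log2 minus the mean of the 3 arrays at 6 h, at 6, 24 and 72 h, with bars at group means. The 24 h arrays of a list lie close together, for lysosomal genes at 0.76, 0.80 and 0.76, and at 72 h the lipid and ATF4 lists spread widely, from -1.46 to 0.78 for cholesterol genes.

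Whether the change between 6 h and 24 h was the same in cells labelled as given monuron was tested in 1 fit over 12 arrays, and these 2 time changes share no array. Of 8959 genes, 770 changed more upward in DMSO (8.59%) and 872 more downward (9.73%), 18.3% in all. Of the 5 genes with the smallest adjusted p among those more downward in DMSO, 3 belong to sterol synthesis. Dhcr7, the last enzyme of cholesterol synthesis, changed by 0.91 in DMSO and 2.61 with monuron, a gap of -1.70 (SE 0.10, adjusted p = 1.37e-07). At 6 h its mean was 10.25 in DMSO and 8.91 with monuron, and at 24 h 11.16 and 11.52. For Fdps and Idi1, of the isoprenoid route, the gaps were -1.24 and -1.22. Asns, the synthetase that fell in DMSO, changed by -0.98 in DMSO and 0.06 with monuron, a gap of -1.04 (SE 0.09, adjusted p = 8.47e-06). The 5 genes with the smallest adjusted p among those more upward in DMSO included Hexim1, an inhibitor of transcription elongation, and the splicing factors Srsf2 and Sfpq. Their differences with monuron were -1.08, -1.27 and -2.04, against differences in DMSO of -0.09, -0.41 and -0.77. With the 72 h arrays in the fit as well 110 genes were called, and none of the 10 genes named for this test kept its call. Leaving out DMSO 24 h replicate 1 gave 992 calls, leaving out monuron 24 h replicate 2 gave 1026 and leaving out monuron 6 h replicate 2 gave 1078. The protocol text for the cells names another compound than the titles do, so the monuron label is used here as the titles give it.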

How the data were processed

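RNA of NRK-52E cells was measured on Affymetrix rat arrays. The deposited values are log2 expression per probe set, made by the authors with GCRMA, per the submitters' processing notes; a scan date or batch is not given in the sources used here. Of 31099 probe sets, 20826 had 1 gene symbol, 436 several and 9780 none, and 57 were controls. The brightest probe set stood for a gene, and probe sets not above their own array's median on at least 3 of the arrays were left out. Times were compared with limma 3.58.1 in R 4.3.3 (empirical Bayes with a trend, Benjamini-Hochberg adjustment, adjusted p under 0.05) over the 6 arrays, and the time changes of DMSO and monuron over 12. The steps were also run on simulated arrays in which few genes, all bright, were changed. The real data differ in both respects, so that run does not bear on the breadth of the calls or on genes near background. Nothing in the labels ties the replicates to separate days or passages, so p-values measure the spread between these samples. Named genes are the 10 largest rises and falls without overlap, up to 4 called members of each of 43 lists by adjusted p, a fixed panel, and 5 genes each way for the difference with monuron; 23 of the 225 genes named with a difference lie outside this rule and were chosen after their values were seen. The gene lists and their members were chosen with earlier results of these data known, while the arrays were chosen by their labels. Promoters are RefSeq's, of GRCr8. Alternatives covered scaling, filter, probe set choice, arrays in the fit, variance model, block and each array left out.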

Additional observations from a re-analysis of the deposited data

Results flagged for a closer look

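The change between 6 h and 24 h differed between DMSO and monuron for 10 genes singled out by the smallest adjusted p in a test of that difference (limma, 12 arrays). Ifi27l2b, of the interferon-induced Ifi27 family, changed by -1.45 in DMSO and 2.68 with monuron, a gap of -4.13 (adjusted p = 1.37e-07). Dhcr7, Fdps and Idi1, of sterol synthesis, had gaps of -1.70, -1.24 and -1.22, and Asns, asparagine synthetase, one of -1.04. In the other direction Col14a1, a collagen, changed by -0.55 in DMSO and -2.22 with monuron, a gap of 1.67 (adjusted p = 8.47e-06). Tfrc, the transferrin receptor, changed by -0.10 in DMSO and -1.48 with monuron, a gap of 1.39 (adjusted p = 8.47e-06). The splicing factors Sfpq and Srsf2 had gaps of 1.27 and 0.87, and Hexim1 one of 0.99. With all 18 cell arrays in the fit none of the 10 passed the threshold, at adjusted p between 0.0581 and 0.4586.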

How the results depend on the processing

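Over the alternatives that kept all 6 arrays or added others, the number of genes called ran from 4166 to 5858, and it ran from 4767 to 5473 when 1 array was left out. The fit with the replicate number as a block called 5380 genes, 5301 of them also called without the block. Deviations from the group means of same-numbered arrays correlated at -0.17, -0.06 and -0.03, so the numbers were not taken to pair the samples. Centring on array medians moved the higher share of calls to 35.0%. Counting each named gene once per alternative, 3865 differences kept their direction and side of the threshold, 108 lost the call, 17 gained one and 24 changed sign. With median centring the sign turned for Col1a1 (-0.090), Ppat (-0.13), Serpinh1 (-0.014) and Srebf2 (-0.062), and with quantile normalization for Col1a1 (-0.015) and Idi1 (0.017). As means of all probe sets it turned for Cdkn1b (0.16), Insig2 (0.026) and Wipi1 (-0.49). With the 72 h arrays in the fit Insig2 differed by 0.30, since its other probe set was then the brighter. Leaving out 1 array moved Bmal1 from -0.27 to 0.0044, Ccnd1 from -0.10 to 0.044, Col1a1 from -0.079 to 0.16, Idi1 from -0.066 to 0.026, Insig2 from -0.28 to 0.31, Ocln from -0.17 to 0.041 and Ppat from -0.17 to 0.11. Calls for a different time change with monuron were 110 with all 18 cell arrays, 1953 with the block and 992 to 1859 with 1 array left out, and the cause was not tested. Values below the array medians are close to background, and 3 arrays a time limit the precision.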

Other observations

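Further gene families, chosen by symbol after their values were seen, are given as counts beside 32.8% of all genes called lower and 29.3% called higher. Core proteins of the spliceosomal particles (Snrp) fell in 9 of 9 cases, with a median of -0.91, and the related Lsm proteins in 9 of 11, with a median of -0.91. The SR splicing factors (Srsf) fell in 3 of 8 and had a median of 0.05. Subunits of the cytosolic chaperonin (Cct) fell in 8 of 8. Mitochondrial ribosomal proteins (Mrpl and Mrps) fell in 58 of 73 and rose in 1, and the mitochondrial import proteins (Timm and Tomm) fell in 19 of 21. Nucleoporins (Nup) fell in 15 of 21. Semaphorins and plexins, which guide cell movement and adhesion, rose in 10 of 12 cases and fell in 0, with a median of 0.70, and aldehyde dehydrogenases rose in 6 of 10.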
